A study of Mus musculus with 8 samples.

Results

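The core spliceosome genes are the 59 listed mouse genes for proteins of the U1, U2 and U4/U6.U5 small nuclear ribonucleoproteins (snRNPs), the Prp19 and intron-binding complexes, and the helicases and second-step factors of the major spliceosome. They were taken by symbol. The deposited exon counts were summed per gene through the GENCODE M21 annotation, which gave 52502 genes in all, and coordinates are those of its build, GRCm38 (mm10). Of the 59 genes, 34 had enough counts to be tested, among 10673 genes tested.

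The spliceosome removes introns from precursor messenger RNA. The U1 snRNP pairs with the 5′ splice site and the U2 snRNP with the branch point, after which the U4/U6.U5 tri-snRNP joins, U4 leaves, and the Prp19 complex and a series of helicases drive the catalytic steps and the final disassembly. A growing mouse oocyte stores large amounts of spliced messenger RNA, and transcription falls silent once the oocyte is fully grown, so a level in such a cell reflects both earlier synthesis and storage.

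Polyadenylated RNA was measured in germinal vesicle (GV) oocytes, which are arrested in meiotic prophase, in 8 libraries of about 20 oocytes each. The 4 conditional knockout (cKO) libraries came from Kiaa1429F/F;Zp3-Cre mice and the 4 control libraries from Kiaa1429F/+;Zp3-Cre mice, all C57BL/6. Kiaa1429, now named Virma, encodes a scaffold of the writer complex for N6-methyladenosine (m6A), a methyl mark on messenger RNA, and the comparison asks how its loss in growing oocytes alters the transcriptome. Zp3-Cre is a recombinase under an oocyte promoter that acts during oocyte growth. The control mice carry it too and have 1 floxed allele, so the comparison sets loss of both copies against loss of 1. The mice are given as 20 days old in one label field and as 3 weeks old in another. Follicle growth was driven with 5 IU of PMSG, a gonadotropin, and after 48 hours oocytes with a diameter of 70 µm or more were collected. Libraries are not tied to animals in the labels, so p-values measure only the spread between these libraries.

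The labels do not name the exons that Cre removes. Exon counts totalled 4399190 to 5064008 per cKO library and 4247471 to 4790038 per control library. Virma had 18.6, 24.2, 17.8 and 17.0 counts per 1000000 (CPM) in cKO libraries 1 to 4, against 61.0, 71.6, 57.1 and 82.0 CPM in control libraries 1 to 4. All 4 cKO libraries lay below all 4 control libraries, a fall of 1.81 ± 0.18 on the log2 scale (± gives the SE of a log2 fold change throughout; Benjamini-Hochberg adjusted p = 1.02e-06 in the quasi-likelihood test of edgeR, the source of each adjusted p given for a gene). All 14 oocyte markers had counts, and together they made up 25164 to 29432 CPM, before scaling, in cKO and 38566 to 48217 CPM in control libraries. Of 18 cumulus and granulosa markers 16 had counts (Nr5a1 and Slc38a3 were at 0), with sums of 459 to 777 CPM in cKO and 212 to 387 CPM in control libraries. Of 8 immune and blood markers 3 had counts (Ptprc, Adgre1, Cd74, Hba-a1 and Hbb-bs were at 0), with sums of 5.82 to 10.002 CPM in cKO and 0.235 to 1.46 CPM in control libraries. The markers of a type did not all move alike. At adjusted p under 0.05, 1 of the 14 oocyte markers was higher in cKO and 7 were lower. Of 9 cumulus and granulosa markers tested, 4 were higher and 3 lower. Only 1 immune and blood marker could be tested, and it was higher. Over all genes tested 27.0% were higher and 27.9% lower. Reads that met more than 1 exon ID, which the files list as ambiguous and assign to no exon, were 78.8% to 80.4% of reads in cKO and 72.9% to 75.4% in control libraries. Reads outside every exon ID were 5.01% to 6.19% in cKO and 9.86% to 12.0% in control libraries. The part of these marker and read shares in the results was not tested, and fewer cells of a type and less RNA per cell cannot be told apart in such libraries.

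The stretches in which the counts of these genes lay, and the starts of the genes, are shown first. The promoters, from RefSeq (GRCm38.p6), hold 250 bases before and 50 bases after the start that RefSeq gives, on the strand of the gene. For Snrpc this start lies inside the GENCODE gene. The Snrpc stretch overlaps the exon that held most of its counts (chr17:27839974-27840169). Capitals mark CCGGAAG, the core that ETS family factors bind, or TGACGTCA, the cyclic AMP response element, each searched on both strands. Cdc5l is shown for its large difference between the groups, and Snrpb2 and Snrpc because they were called and hold the ETS core.
Cdc5l promoter, chr17:45433658-45433957, minus strand: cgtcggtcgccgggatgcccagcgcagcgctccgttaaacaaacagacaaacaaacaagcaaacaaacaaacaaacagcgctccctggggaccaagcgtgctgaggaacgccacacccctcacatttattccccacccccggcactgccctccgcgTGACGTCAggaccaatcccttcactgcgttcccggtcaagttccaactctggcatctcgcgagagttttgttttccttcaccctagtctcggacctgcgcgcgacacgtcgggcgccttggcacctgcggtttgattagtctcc
Snrpb2 promoter, chr2:143062819-143063118, plus strand: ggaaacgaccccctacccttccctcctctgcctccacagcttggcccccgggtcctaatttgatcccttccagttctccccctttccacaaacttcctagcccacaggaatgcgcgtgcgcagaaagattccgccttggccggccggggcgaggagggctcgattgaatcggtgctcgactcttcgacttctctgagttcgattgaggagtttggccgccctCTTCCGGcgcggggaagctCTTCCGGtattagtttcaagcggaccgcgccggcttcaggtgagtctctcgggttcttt
Snrpc promoter, chr17:27839837-27840136, plus strand: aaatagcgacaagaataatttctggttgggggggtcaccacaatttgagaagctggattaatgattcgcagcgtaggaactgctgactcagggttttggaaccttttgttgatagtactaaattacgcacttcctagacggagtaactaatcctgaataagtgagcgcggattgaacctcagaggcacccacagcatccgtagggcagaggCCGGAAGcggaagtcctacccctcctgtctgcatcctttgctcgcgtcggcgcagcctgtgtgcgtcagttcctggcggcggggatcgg
A match of letters is a description and not a bound site. CCGGAAG was present in 21 of the 47 core spliceosome promoters in the RefSeq table (44.7%), against 16.0% of the promoters of 6869 tested genes and 9.12% of 27025 promoters in all. TGACGTCA was present in 8.51% of the core spliceosome promoters, 2.98% of those of tested genes and 1.88% of all. TATAAA was present in 4.26% of the core spliceosome promoters, 8.37% of those of tested genes and 14.2% of all. The median number of CG pairs per promoter was 24 for the core spliceosome genes, 19 for tested genes and 7 for all. Of the 9 genes called in either direction that have a promoter there, 4 held CCGGAAG (Aqr, Snrnp27, Snrpb2 and Snrpc), so that the core was present both in genes that rose and in 1 that fell.

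The m6A writer complex is known to favour the letters GGACT. In the leading exon of a gene, meaning the exon ID with most of its counts, GGACT on the transcript strand occurred 1.26 times per kilobase over the 34 tested core spliceosome genes and 0.9503 times over all genes tested. It was present in 17 of these 34 exons (50.0%), of 568 bases at the median, against 62.3% of the leading exons of all genes tested, of 1088 bases at the median. Over the 9 core spliceosome genes that were higher in cKO oocytes the density was 2.03 per kilobase, over the 2 that were lower 1.28, and over the 23 not called 0.961. For all genes tested the densities were 0.933 for those higher, 0.961 for those lower and 0.956 for those not called. Most of the matches in the higher genes lay in Prpf4, with 10 in its last exon of 3773 bases, and Prpf18, with 9 in its last exon of 2469 bases. GGACT was present in 5 of the 9 higher genes (55.6%) and in 11 of the 23 not called (47.8%). The densest single genes were Sf3b2 at 5.03, Syf2 at 4.23 and Dhx38 at 4.23 per kilobase, none of them called. Examples of 25 bases from the GENCODE M21 transcripts, with GGACT in capitals, come from the 3 genes with the largest rises.
Cdc5l, chr17:45392027-45392051, minus strand: ttacagacttGGACTccaggataat
Snrpd3, chr10:75536457-75536481, plus strand: gcacatgcatGGACTtcctgagtgc
Prpf4, chr4:62423218-62423242, plus strand: ctatccatggGGACTtcttgctcac
Prpf4, chr4:62423416-62423440, plus strand: gaccacggaaGGACTcagaacttgt
Prpf4, chr4:62424075-62424099, plus strand: aaagatagctGGACTgtatttgaaa
The files do not measure m6A, so these matches say nothing of methylation at these sites.

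Of the 34 core spliceosome genes tested, 9 were higher and 2 were lower in cKO oocytes, and 23 were not called. That is 26.5% higher and 5.88% lower, against 27.0% higher and 27.9% lower over all genes tested (54.9% in either direction). Over the 7991 protein-coding genes of the same fit 30.4% were higher and 23.5% were lower. The levels of the groups did not overlap for 13 of the 34 genes, against 50.1% of all genes tested. The median log2 fold change was 0.18 for the core spliceosome genes, 0.02 for all genes tested and 0.10 for the protein-coding ones, and 22 of the 34 values were positive. Without scaling the libraries beyond their summed counts, which moves the median of all genes by 0.16 on the log2 scale, 13 were higher and 1 was lower. Of the 10673 genes in that fit, 3499 were higher and 2482 lower. With protein-coding genes alone scaled and tested, 8 were higher and 4 were lower. Of the 7991 genes in that fit, 2166 were higher and 2088 lower. The count of lower genes was 1 without cKO replicate 2 or 4 or without control replicate 4, and 3 without control replicate 1 or 3.

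**Figure D1:**
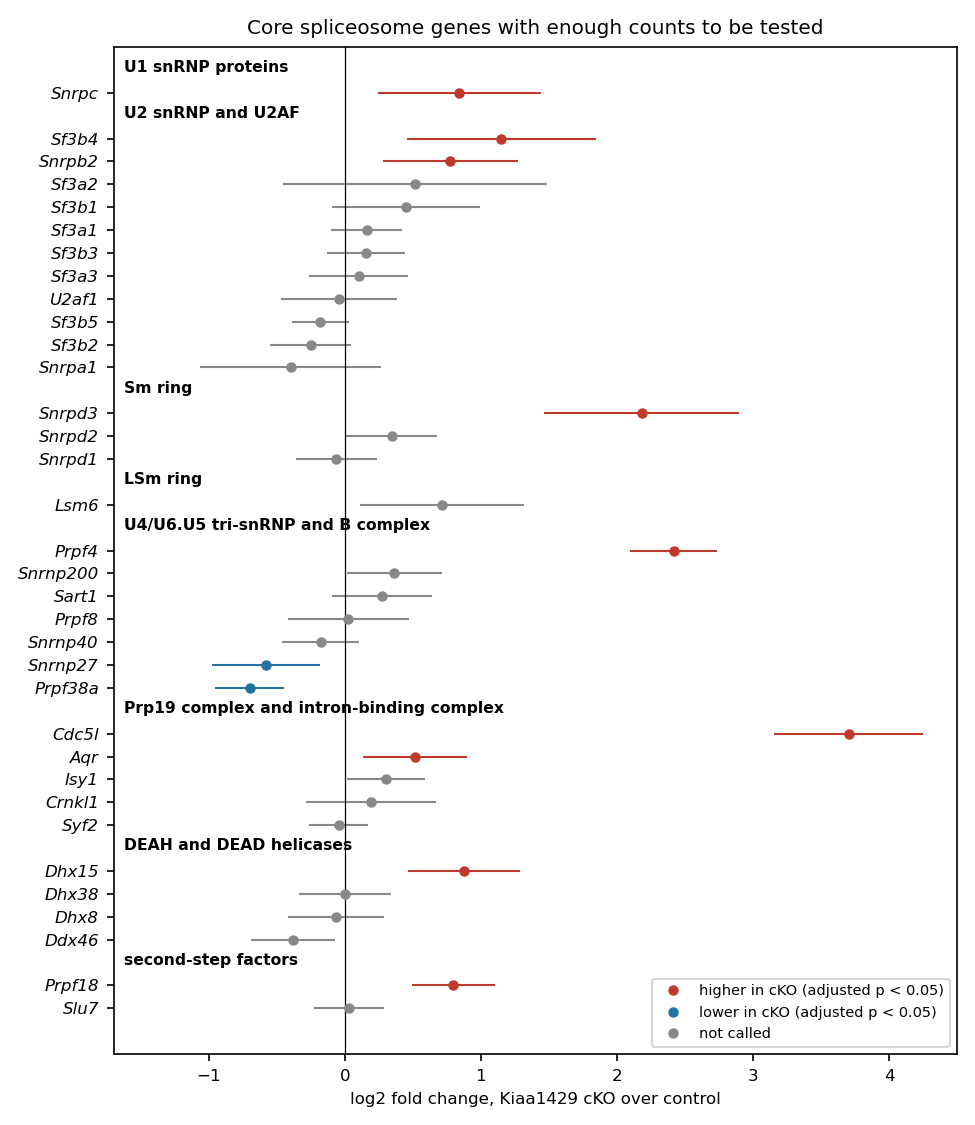
Log2 fold change (cKO over control) of the 34 core spliceosome genes tested, by role, with points for the estimate and bars for its 95% interval. Red points are higher in cKO (9 genes), blue points lower (2 genes) and grey points not called (23 genes), and Cdc5l at 3.70, Prpf4 at 2.42 and Snrpd3 at 2.18 lie farthest from 0.

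Among the proteins of the U1 snRNP, only Snrpc passed the filter on low counts. Snrpc (U1-C; chr17:27838150-27851968), which steadies the pairing of U1 with the 5′ splice site, had 3.32, 3.40, 3.65 and 2.81 CPM in the cKO libraries, against 1.33, 2.39, 1.84 and 1.75 CPM in the control libraries. Every cKO library lay above every control library. Snrpc rose by 0.84 ± 0.31 on the log2 scale (adjusted p = 0.0292). These levels rest on 63 counts over the cKO libraries and 30 over the control libraries, and 98.9% of them lay on 1 exon of 196 bases. The annotation holds only chr17:27840162-27840169 of that exon as coding. The call was lost under 9 of 17 alternatives, among them those without cKO replicate 1, 2 or 3 or control replicate 1, 3 or 4, and DESeq2, with adjusted p from 0.0124 to 0.114 over the 17. Without those libraries the log2 fold change was between 0.69 and 0.85. The other U1 genes had few counts. Snrpa (U1-A), which binds a loop of U1 RNA, had 6, 8, 4 and 8 counts in the cKO libraries and 4, 3, 1 and 2 in the control libraries.

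Of the 11 genes tested for the U2 snRNP and its helper U2AF, 2 rose and 9 were not called. Sf3b4 (chr3:96172332-96177564), the SF3b subunit that contacts the pre-mRNA near the branch point, had 39.9, 42.9, 56.3 and 36.9 CPM in the cKO libraries, against 9.76, 41.9, 16.6 and 11.01 CPM in the control libraries. Control library 2 reached the level of the cKO libraries and the other 3 control libraries lay far below, so the groups overlapped. Sf3b4 rose by 1.15 ± 0.35 on the log2 scale (adjusted p = 0.0124), or by 1.81 without control replicate 2 (adjusted p = 1.81e-05). Without cKO replicate 3 it was 0.98 with an adjusted p of 0.0508, and over 18 alternatives the adjusted p ran from 1.40e-07 to 0.0508. Its internal exon and its last exon both rose, by 1.11 and 1.26.

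Snrpb2 (U2-B″; chr2:143063039-143072853), a protein of the U2 particle that binds a loop of U2 RNA, had 10.4, 10.2, 6.66 and 10.1 CPM in the cKO libraries, against 6.65, 3.59, 5.26 and 6.25 CPM in the control libraries. The lowest cKO library only just exceeded the highest control library. Snrpb2 rose by 0.78 ± 0.25 on the log2 scale (adjusted p = 0.0166). Of its counts 99.3% lay on a first exon of 182 bases that the annotation holds as noncoding, so the value describes that stretch and not the coding body of the transcript. Snrpa1 (U2-A′), which pairs with Snrpb2 on U2 RNA, was at -0.40 ± 0.34 (adjusted p = 0.340). Most Snrpa1 counts (70.9%) lay on a first exon of 85 bases held as noncoding.

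The SF3a and SF3b subunits, which hold U2 at the branch point, otherwise did not pass the test. Sf3a1, Sf3a2 and Sf3a3 were at 0.16, 0.52 and 0.10 on the log2 scale, and Sf3b1, the subunit that clamps the branch point, was at 0.45. Sf3b2 was at -0.25 and Sf3b3 at 0.16. Sf3b5, a small subunit of SF3b whose transcript alone held 28.6% of all core spliceosome counts, had 704, 746, 716 and 731 CPM in the cKO libraries, against 883, 771, 806 and 824 CPM in the control libraries. All cKO libraries were lower, but by little, at -0.18 ± 0.11 (adjusted p = 0.171, and 0.0495 with protein-coding genes alone). For Sf3a2, which control replicate 2 dominated at 6.70 CPM against 1.25 to 1.58 CPM in the other control libraries, the value was 1.47 without that library (adjusted p = 0.00933, and 0.00933 to 0.806 over its 16 alternatives). U2af1, which recognises the AG at the 3′ splice site, was at -0.04 ± 0.22 (adjusted p = 0.890). Most U2af1 counts (94.3%) lay on a last exon held as noncoding.

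Of the Sm proteins, which form a ring around the U1, U2, U4 and U5 RNAs, 3 of 7 could be tested and 1 rose. Snrpd3 (SmD3; chr10:75517551-75537381) had 6.87, 4.46, 7.31 and 5.06 CPM in the cKO libraries, against 0.444, 1.91, 1.58 and 1.25 CPM in the control libraries. The groups were far apart, with 113 counts in all over the cKO libraries and 21 over the control libraries. Snrpd3 rose by 2.18 ± 0.37 on the log2 scale (adjusted p = 0.000133) and was called under all 16 alternatives that tested it, between 1.87 and 2.43. Snrpd1 (SmD1) was at -0.06 ± 0.15 and Snrpd2 (SmD2) at 0.34 ± 0.17 (adjusted p = 0.105, and 0.0328 without scaling). Snrpd2 averaged 59.0 ± 3.39 CPM in cKO and 46.4 ± 9.91 CPM in control libraries (SD, n = 4 each), and its groups did not overlap. In the related LSm ring, which sits on the 3′ end of U6 RNA, only Lsm6 could be tested. It averaged 3.80 ± 0.73 CPM in cKO and 2.30 ± 0.71 CPM in control libraries (SD, n = 4 each), at 0.72 ± 0.31 (adjusted p = 0.0624). It was called without cKO replicate 1 (0.84) or control replicate 4 (0.91), and its adjusted p ran from 0.0267 to 0.161 over 16 alternatives.

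Of the 7 genes tested for the tri-snRNP and the B complex, in which the tri-snRNP joins U2, 1 rose and 2 fell. Prpf4, a U4/U6 protein that binds Prpf3, had 90.4, 94.3, 103 and 98.3 CPM in the cKO libraries, against 18.9, 22.0, 15.3 and 16.0 CPM in the control libraries. The libraries of each group lay close together and the groups far apart. Prpf4 rose by 2.42 ± 0.16 on the log2 scale, which is 5.34-fold (adjusted p = 2.93e-08). Nearly all of its counts (99.4%) lay on its last exon (chr4:62423218-62426990), the one with the GGACT matches shown above. Prpf38a (chr4:108563172-108579336), which joins at the B complex stage, had 70.7, 71.4, 64.1 and 71.5 CPM in the cKO libraries, against 118, 101, 111 and 121 CPM in the control libraries. Every cKO library lay below every control library, and Prpf38a fell by 0.70 ± 0.13 on the log2 scale (adjusted p = 0.000344), to 61.6% of control. Of its counts 93.0% lay on its first exon, and both its first and its last exon fell, by 0.68 and 0.67. The last exon is held as noncoding and had only 16 to 37 counts per library (adjusted p = 0.0375).

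Snrnp27 (chr6:86675151-86684522), a small protein of the tri-snRNP, had 15.3, 11.3, 9.89 and 12.4 CPM in the cKO libraries, against 16.6, 17.0, 16.6 and 22.8 CPM in the control libraries. The highest cKO library lay just under the lowest control library, and control library 4 stood above the rest. Snrnp27 fell by 0.58 ± 0.20 (adjusted p = 0.0252). The call was lost under 7 of 18 alternatives, among them those without cKO replicate 2, 3 or 4 or control replicate 4 (-0.57 to -0.47), that without scaling (-0.42) and that with last exons left out (-0.51), with adjusted p from 0.0144 to 0.284 over the 18. The U5 proteins tested were not called. Prpf8, the scaffold of the catalytic centre, was at 0.02 ± 0.23, and Snrnp40, a U5 protein, at -0.18 ± 0.14. Snrnp200, the helicase that unwinds U4 from U6, averaged 22.1 ± 2.86 CPM in cKO and 17.2 ± 1.62 CPM in control libraries (SD, n = 4 each) without overlap, at 0.36 ± 0.18 (adjusted p = 0.0961, and 0.0274 without scaling).

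Among the 5 tested genes of the Prp19 and intron-binding complexes, 2 rose and 3 were not called. Cdc5l (chr17:45391884-45433737), a core subunit of the Prp19 complex, had 17.5, 13.2, 14.0 and 13.7 CPM in the cKO libraries, against 1.11, 0.718, 1.05 and 1.501 CPM in the control libraries. The lowest cKO library was several times the highest control library. Cdc5l rose by 3.70 ± 0.28 on the log2 scale (adjusted p = 8.59e-08), resting on 279 counts over the cKO libraries and 18 over the control libraries. It was called under all 17 alternatives that tested it, between 3.54 and 3.87. Its first exon of 347 bases, with 20, 15, 10 and 14 counts in the cKO libraries against 1, 0, 2 and 0 in the control libraries, and its last exon of 421 bases, with 44, 37, 40 and 45 against 3, 3, 1 and 4, both rose (3.91 ± 0.60 and 3.67 ± 0.34). Both ends of the transcript moved alike.

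Aqr (chr2:114101170-114187024), the helicase of the intron-binding complex, had 30.4, 32.5, 39.98 and 33.9 CPM in the cKO libraries, against 26.4, 29.7, 16.0 and 23.3 CPM in the control libraries. The groups did not overlap but nearly met. Aqr rose by 0.52 ± 0.20 (adjusted p = 0.0361), and the call was lost without cKO replicate 2, 3 or 4, without control replicate 1, 3 or 4 (0.37 to 0.55) and with protein-coding genes alone (0.43), with adjusted p from 0.0146 to 0.114 over 17 alternatives. Isy1, which enters with the Prp19 complex, was at 0.30 ± 0.15 (adjusted p = 0.0918, and 0.0178 without control replicate 3, where it was 0.42), with a range of 0.0123 to 0.249 over 17 alternatives. Crnkl1, a large scaffold of the complex, was at 0.19 ± 0.24, with libraries from 39.7 to 82.9 CPM in cKO and 41.5 to 76.0 CPM in control. Syf2, another protein that enters with that complex, was at -0.05 ± 0.11.

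Of the 4 tested helicases that drive the cycle, 1 rose. Dhx15 (chr5:52150203-52190514), whose yeast counterpart Prp43 takes the spent spliceosome apart, had 24.6, 31.7, 35.9 and 25.8 CPM in the cKO libraries, against 14.9, 17.0, 11.6 and 20.8 CPM in the control libraries. All cKO libraries were above all control libraries. Dhx15 rose by 0.88 ± 0.21 on the log2 scale (adjusted p = 0.00235). Dhx38 and Dhx8, the counterparts of yeast Prp16 and Prp22, averaged 12.4 ± 1.78 and 24.1 ± 4.82 CPM in cKO libraries, against 12.3 ± 2.69 and 25.3 ± 0.796 CPM in control libraries (SD, n = 4 each), and neither was called. Ddx46, the counterpart of yeast Prp5, which acts when U2 joins, averaged 45.6 ± 4.68 CPM in cKO and 59.5 ± 8.75 CPM in control libraries (SD, n = 4 each). It lay at the threshold, at -0.38 ± 0.16 (adjusted p = 0.0507). It was called under 7 of 17 alternatives, with adjusted p from 0.0171 to 0.260, among them those without cKO replicate 3 (-0.47) and without control replicate 1 or 3 (-0.45 each).

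Both factors of the second catalytic step could be tested and 1 rose. Prpf18 (chr2:4622058-4652113) had 189, 180.0, 215 and 161 CPM in the cKO libraries, against 98.5, 107, 136 and 86.8 CPM in the control libraries. The groups did not overlap. Prpf18 rose by 0.80 ± 0.16 on the log2 scale (adjusted p = 0.000482) and was called under all 17 alternatives that tested it. Slu7, which helps choose the 3′ splice site, averaged 131 ± 3.98 CPM in cKO and 128 ± 16.5 CPM in control libraries (SD, n = 4 each), at 0.03 ± 0.13.

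**Figure D2:**
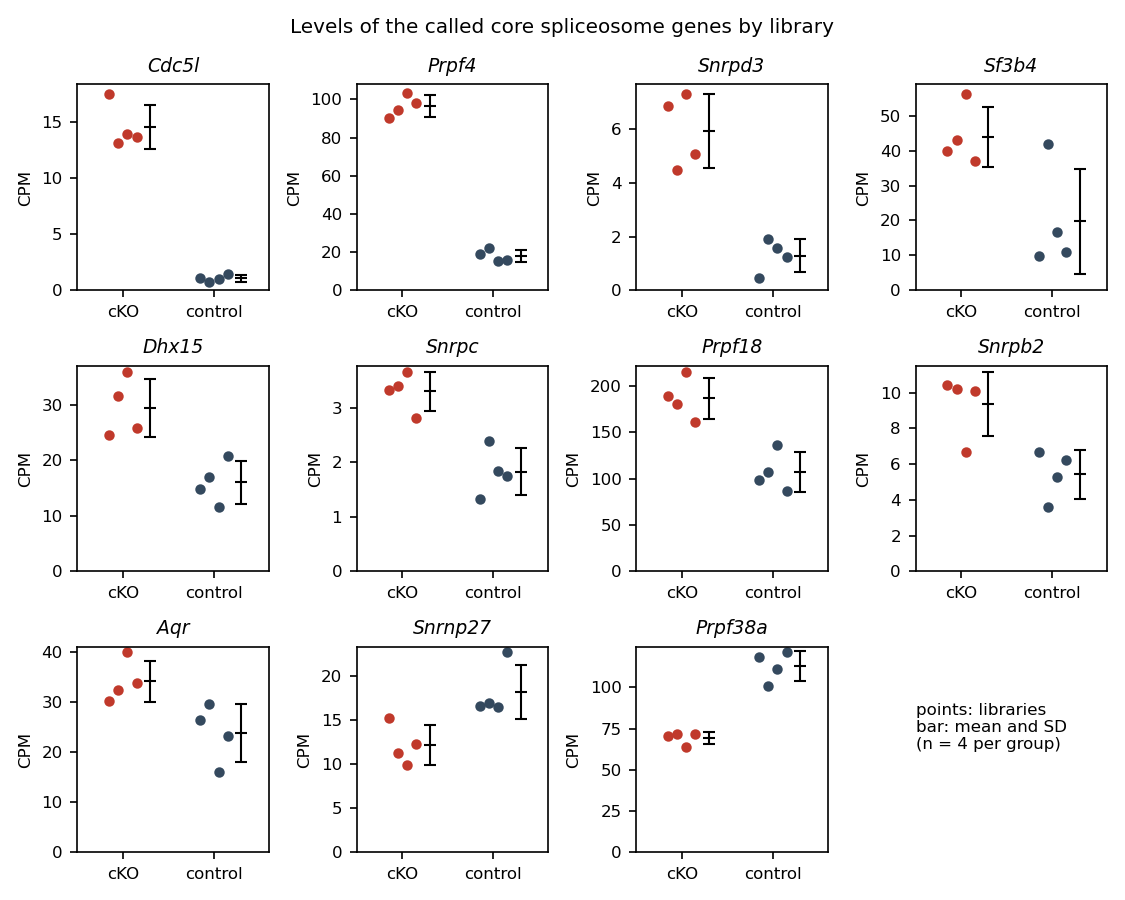
Level in CPM of the 11 core spliceosome genes called between cKO and control oocytes, 1 panel per gene. Points are libraries, and bars beside them give the mean and SD (n = 4 per group). The groups overlap in the panel of Sf3b4, where control library 2 at 41.9 CPM lies among the cKO libraries, and nearly meet in those of Snrpb2 (6.66 CPM in the lowest cKO library and 6.65 CPM in the highest control library) and Aqr (30.4 CPM and 29.7 CPM).

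The counts of all 59 genes together made up 2742, 2916, 2995 and 2799 CPM before scaling in the cKO libraries, against 2530, 2604, 2335 and 2397 CPM in the control libraries. With scaled library totals, added after the data were seen, the sums were 2698, 2766, 2832 and 2654 CPM in the cKO libraries, against 2688, 2648, 2632 and 2555 CPM in the control libraries. The groups did not overlap before scaling and did overlap with it. Sf3b5 with 28.6% and Syf2 with 18.1% of the counts weigh heavily in these sums. By role and with scaling, the tri-snRNP and B complex genes summed to 341 ± 8.56 CPM in cKO and 312 ± 12.7 CPM in control libraries, and the second-step factors to 318 ± 26.1 CPM in cKO and 235 ± 34.2 CPM in control libraries, neither with overlap (SD, n = 4 each). Single genes weigh on both. Prpf4 averaged 96.6 CPM in cKO and 18.0 CPM in control libraries, while Prpf38a averaged 69.4 CPM in cKO and 113 CPM in control libraries. Prpf18 averaged 186 CPM in cKO and 107 CPM in control libraries, and Slu7 131 and 128 CPM. These 2 sums therefore do not show a rise shared by the genes of the role. The U2 genes summed to 1088 ± 41.6 CPM in cKO and 1139 ± 36.1 CPM in control libraries with scaling, but to 1138 ± 61.2 CPM in cKO and 1068 ± 67.0 CPM in control libraries before it (SD, n = 4 each), so the direction turned with the scaling. It also turned for the DEAH and DEAD helicases, at 112 ± 15.1 CPM in cKO and 114 ± 12.3 CPM in control libraries with scaling, and 117 ± 16.8 CPM in cKO and 107 ± 15.3 CPM in control libraries before it (SD, n = 4 each). The Sm genes summed to 188 ± 12.2 CPM in cKO and 176 ± 32.4 CPM in control libraries with scaling (SD, n = 4 each), and the groups overlapped. Of the 8 roles, 4 did not overlap between groups with scaling (U1, LSm, tri-snRNP and B complex, and second-step factors). Among single genes, 50.1% of all those tested did not overlap. The U1 and LSm sums were low, at 2.37 to 5.74 and 4.55 to 10.9 CPM per library. These sums were not tested.

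The deposited counts leave out a read that meets more than 1 exon ID, so reads that cross from one exon ID into another go uncounted. The counting options are not given, so it is unknown whether reads that run into an intron are counted. Over the 34 tested genes the leading exon was a last exon for 25, a first exon for 3, an internal exon for 5 and the only exon for 1, and for 18 genes at least 90% of the counts lay on 1 exon ID. Bases of the leading exon that no other exon ID covers numbered 547 at the median of the tested genes and 372 at the median of the untested genes with counts. A low count is therefore not read as low expression, and levels are not compared between genes.

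**Figure D3:**
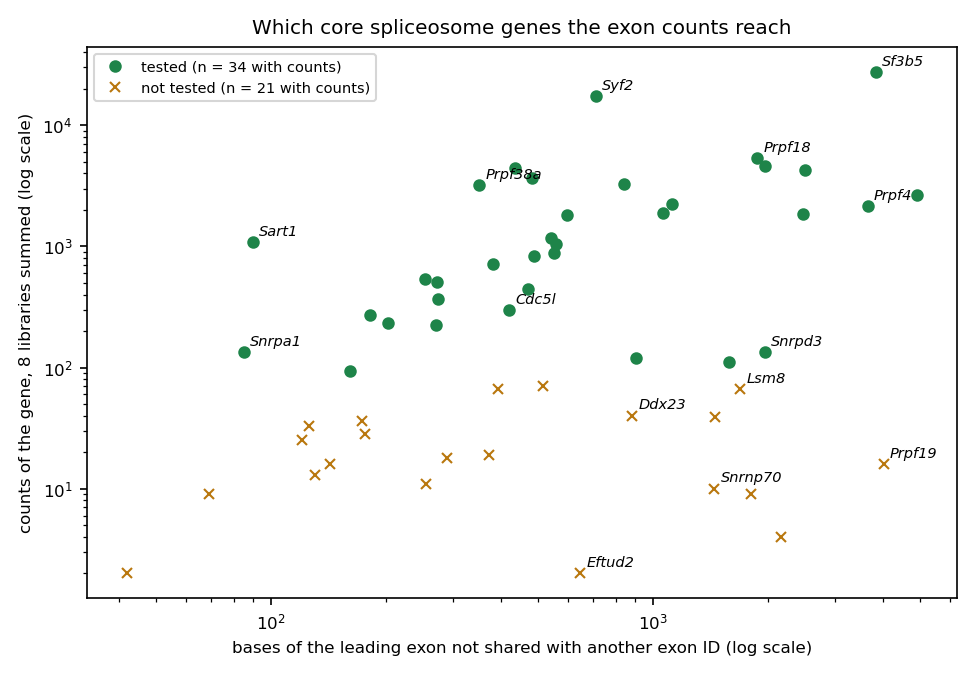
Total counts over the 8 libraries (log scale) against the bases of the leading exon that no other exon ID covers (log scale), for the 55 core spliceosome genes with counts. Green circles are the 34 tested genes, at 93 to 27484 counts, and orange crosses the 21 untested genes, at up to 70 counts.

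Of the 25 genes not tested, 4 had no counts in any library, namely U2af2, which binds the polypyrimidine tract, Lsm7, the U4/U6 protein Prpf3 and the Prp19-associated Xab2. In 1 library 3 counts, the limit that a count of 0 allows, are 0.592 to 0.706 CPM before scaling, and reads that cross into another exon ID are left out, so this does not show that the genes were silent. A further 16 had at least 10 counts in all, and for 5 of these the shares of counts of the groups did not overlap, against 22.4% of the 7525 genes of the same kind. These were Snrpa, Sf3b6, Snrpg, Lsm8 and Plrg1. Lsm8, which gives the nuclear LSm ring its identity, had 9, 11, 11 and 26 counts in the cKO libraries and 1, 4, 3 and 1 in the control libraries. That is a ratio of 6.06 in shares of counts (95% Clopper-Pearson interval 2.98 to 13.9, covering counting error only), and 98.5% of the counts lay on a last exon held as noncoding. Sf3b6, the SF3b subunit that touches the branch point adenosine, had 10, 12, 8 and 15 counts in the cKO libraries and 6, 5, 4 and 7 in the control libraries (ratio 1.958, interval 1.15 to 3.42). Plrg1, a core Prp19 complex protein, had 0, 0, 0 and 1 counts in the cKO libraries and 2, 6, 5 and 2 in the control libraries (ratio 0.064, interval 0.0015 to 0.415). Lsm2 had 3 counts in all over the cKO libraries and 16 over the control libraries, with groups that overlapped. The rest were Snrnp70, Prpf39, Snrpb, Snrpe, Snrpf, Lsm3, Lsm4, Eftud2, Prpf6, Prpf31, Ddx23, Prpf38b, Prpf19, Bud31 and Dhx16, with 2 to 70 counts each.

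At the level of single exon IDs, 45 exons of 33 of these genes could be tested. Of these 13 were higher and 5 lower in cKO oocytes, against 26.2% higher and 27.3% lower of the 14052 exon IDs tested. Exons of Lsm6, Sf3b2 and Sart1 were called although these genes were not called as a whole. Those of Sart1 are given with its exon usage. The last exon of Lsm6 averaged 3.13 ± 0.708 CPM in cKO and 0.907 ± 0.411 CPM in control libraries (SD, n = 4 each) and rose by 1.75 ± 0.38 (adjusted p = 0.00116). This rests on few counts, with single control libraries at 0.529 to 1.49 CPM on that exon. The whole gene had 73 counts over the cKO libraries and 38 over the control libraries, 66.7% of them on that exon. The first exon of Sf3b2 averaged 2.24 ± 0.855 CPM in cKO and 4.17 ± 1.42 CPM in control libraries (SD, n = 4 each) and fell by 0.88 ± 0.35 (adjusted p = 0.0434).

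Exon usage, the split of counts among the exons of a gene, could be tested for 10 of the 59 genes, those with at least 2 tested exons, and 1 was called, against 29.9% of the 2847 genes tested (edgeR's diffSpliceDGE with Benjamini-Hochberg adjustment). That gene was Sart1, a tri-snRNP protein that in human cells is needed for the tri-snRNP to join the spliceosome. Its gene total was not called, at 0.27 ± 0.19 (adjusted p = 0.241), while its split shifted (adjusted p = 3.66e-05). A larger share of its counts lay on an internal coding exon of 90 bases, exon 18 of 20. The sequence of that exon from the GENCODE M21 transcript (GRCm38) is a multiple of 3 bases long and holds no GGACT.
Sart1 internal exon, chr19:5380438-5380527, minus strand: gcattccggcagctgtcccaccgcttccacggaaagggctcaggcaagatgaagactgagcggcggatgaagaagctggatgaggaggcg
This exon had 20.2, 22.2, 19.8 and 23.0 CPM in the cKO libraries, against 6.59, 8.07, 5.29 and 8.91 CPM in the control libraries, and rose by 1.56 ± 0.21 (adjusted p = 1.97e-05). The first exon, of 389 bases, had 11.5, 4.57, 5.65 and 10.9 CPM in the cKO libraries, against 12.5, 18.6, 21.4 and 8.42 CPM in the control libraries, with overlapping groups, and fell by 0.89 ± 0.33 (adjusted p = 0.0343). As a share of the counts on these exons, the internal exon took 63.6%, 82.9%, 77.8% and 67.8% in the cKO libraries, against 34.5%, 30.3%, 19.8% and 51.4% in the control libraries. Every cKO library was above every control library. Sart1 was called for usage under all 12 alternatives, those leaving out each library in turn included. Spliced reads that join this exon to another exon ID go uncounted. Whether reads running from this exon into an intron are counted is unknown, and their part in the shift was not tested. The share therefore does not measure inclusion of the exon in spliced transcripts.

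**Figure D4:**
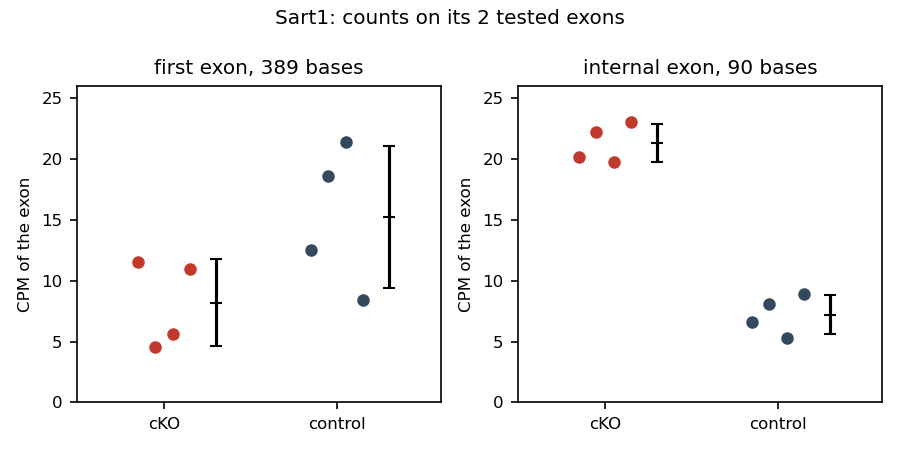
Level in CPM of the first exon (389 bases) and of an internal exon (90 bases) of Sart1, with points for libraries and bars for mean and SD (n = 4 per group). On the internal exon the cKO libraries lie between 19.8 and 23.0 CPM and the control libraries between 5.29 and 8.91 CPM, while the groups overlap on the first exon.

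Other genes of the pathway were taken from 4 lists, and over all genes tested 27.0% rose and 27.9% fell. Of 75 other spliceosome proteins 45 were tested, 10 rose and 8 fell. Wbp4, a B complex protein, rose by 2.12 ± 0.17, and by 1.48 with last exons left out. Smndc1, whose Tudor domain binds methylated Sm proteins, rose by 1.05 ± 0.13, but was not called with last exons left out (0.73, adjusted p = 0.0555, the highest over its 18 alternatives, the lowest being 1.63e-14). Zfp830 averaged 178 ± 19.8 CPM in cKO and 419 ± 75.5 CPM in control libraries (SD, n = 4 each) and fell by 1.24 ± 0.15 (adjusted p = 5.98e-06). Of 13 proteins of the minor spliceosome, which removes a rare class of introns, 5 were tested. Zrsr2, which recognises their 3′ splice site, rose by 0.59 ± 0.18 (adjusted p = 0.0128), and Pdcd7 fell by 0.39 ± 0.12 (adjusted p = 0.0147, lost without cKO replicate 4 at -0.32, without scaling at -0.23 and with last exons left out at -0.43).

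Of 26 genes that assemble and import snRNPs, 17 were tested, 7 rose and 2 fell, with a median log2 fold change of 0.26. For all genes tested the median was 0.02. Ddx20 (Gemin3), a helicase of the SMN complex that loads Sm rings onto RNA, averaged 241 ± 41.9 CPM in cKO and 40.3 ± 12.5 CPM in control libraries (SD, n = 4 each; 2.58 ± 0.20, adjusted p = 1.17e-07). Tgs1, which caps snRNAs with trimethylguanosine, rose by 1.84 ± 0.24, Prmt5, which methylates Sm proteins, by 1.10 ± 0.21, and Phax, the export adaptor of snRNAs, by 1.07 ± 0.13. Of 9 paralogs of the core genes 4 were tested and 3 rose. These were the DEAH helicase Dhx33 (1.57 ± 0.18), Lsm1, which replaces Lsm8 in the cytoplasmic ring (0.55 ± 0.18, and -0.32 with last exons left out), and Lsm12 (0.61 ± 0.21). Lsm12 was not called without cKO replicate 1 (0.58) or 4 (0.56) or without control replicate 1 (0.61) or 4 (0.52). Over the 4 lists 71 of 122 distinct genes were tested, of which 29.6% rose and 15.5% fell, against 27.0% and 27.9% of all genes tested.

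**Figure D5:**
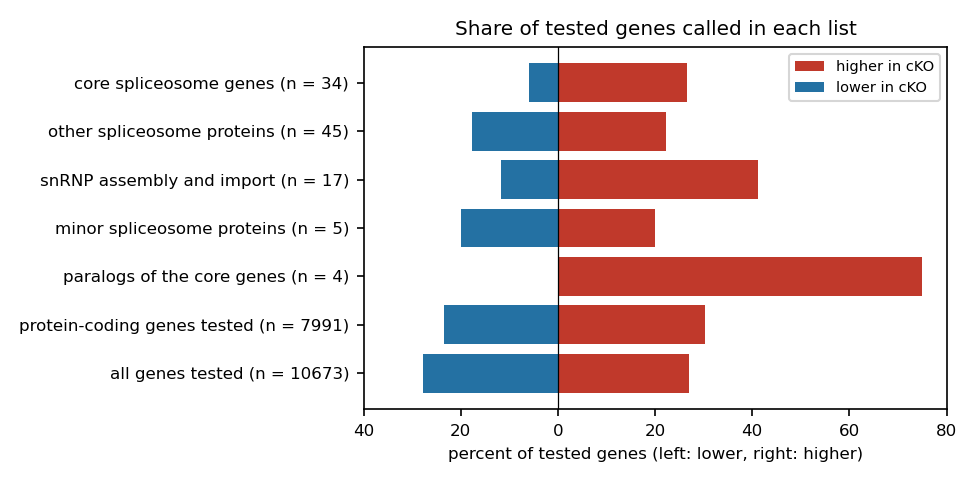
Percent of tested genes called lower (left, blue) and higher (right, red) in cKO than in control oocytes, for the core spliceosome genes, 4 other splicing lists, protein-coding genes and all genes tested. For the core spliceosome genes the bars reach 26.5% higher and 5.88% lower, and for all genes tested 27.0% higher and 27.9% lower.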

How the data were processed

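The files as deposited hold raw counts, whole numbers for each exon ID, with a file for each library. The submitters' processing notes name STAR, HTSeq and mm10. The versions and options of these tools, and the annotation used, were not given in the sources used here. Per the labels' protocols, cDNA was made by oligo-dT priming and template switching and then tagmented, which marks no strand, so reads of overlapping or antisense genes cannot be told apart. Each file ends with 5 summary entries that name no exon, left out of library sizes and tests. Of the reads, 72.9% to 80.4% were ambiguous, 5.01% to 6.19% in cKO and 9.86% to 12.0% in control libraries lay outside exons and 14.6% to 15.6% were counted on exon IDs. The entry for reads aligned to several places is 0 in every file, so the treatment of reads shared with processed copies of small genes such as Snrpd1 and Snrpd2 is unknown. GENCODE M21 (GRCm38) held 494230 of the 496288 exon IDs (99.6%), versions ignored, and 76.7% of counts lay on last exons.

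From these, gene sums passed filterByExpr of edgeR 4.0.16 in R 4.3.3 (minimum count 10), were given TMM factors and entered a two-sided quasi-likelihood fit with a group term alone. A gene is called at a Benjamini-Hochberg adjusted p under 0.05 over all genes tested. SE is |log2 fold change| divided by the square root of F. Levels are CPM with TMM factors, except sums and limits said to be before scaling. Exon usage was tested with diffSpliceDGE, and the scripts were tested on simulated data. Alternatives were RLE, upper-quartile or no scaling, no filter or a mean of 10 CPM, DESeq2 1.42.0, a replicate block, each library left out, last or overlapped exons left out, and protein-coding genes alone. Named genes are Virma, every core spliceosome gene, and up to 4 called genes of smallest p in each other list. A result that this rule takes is not reported here. These genes and lists were chosen with earlier results of these data known. Counting intervals and limits cover counting error only.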

Additional observations from a re-analysis of the deposited data

Results flagged for a closer look

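In 7 of the 68 sets of 4 libraries looked at (34 genes in each group; 10.3%), 1 library stood apart from the other 3 by Dixon's criterion, which chance meets in about 1 in 20 sets. In the cKO libraries, the lowest value stood apart for Snrpb2 (6.66 CPM) and Prpf38a (64.1 CPM) and the highest for Sf3b2 (54.2 CPM). In the control libraries, the highest value stood apart for Sf3a2 (6.70 CPM), Prpf8 (8.21 CPM) and Snrnp27 (22.8 CPM) and the lowest for Snrpd2 (31.6 CPM).

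Outside the counts on exon IDs, the share of ambiguous reads was at least 78.8% of reads in every cKO library, above the 72.9% to 75.4% in the control libraries. Its part in the results was not tested.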

How the results depend on the processing

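Of the 11 core spliceosome genes called, 7 kept their call under every one of the 18 alternatives that tested them and none reversed. Snrpc, Sf3b4, Snrnp27 and Aqr lost it under some, and 7 genes not called gained a call under some. Over the fits that left out 1 library, 8 to 13 core spliceosome genes and 5429 to 6072 genes in all were called, against 11 and 5856. With last exons left out 17 core spliceosome genes could be tested and 5 were called, and 2764 of 5741 genes in all. With a filter at a mean of 10 CPM 3759 of 6458 genes were called. Both fits tested fewer genes than the 10673 of the main fit. Without scaling 3499 genes were higher and 2482 lower.

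The sign of small log2 fold changes turned in some fits. Without scaling, U2af1 was at 0.11, Snrpd1 at 0.092, Syf2 at 0.11, Dhx38 at 0.15 and Dhx8 at 0.090. With protein-coding genes alone, Prpf8 was at -0.061 and Slu7 at -0.054. With last exons left out, Dhx8 was at 0.39 and Lsm1, called higher otherwise, at -0.32. Dhx38, at 0 to 2 decimals, was also at 0.011 with upper-quartile factors, 0.010 with no filter, 0.014 with the replicate block and 0.0014 with overlapped exons left out. Over the fits that left out 1 library, the values ran from -0.14 to 0.047 for U2af1, -0.15 to 0.056 for Snrpd1, -0.043 to 0.15 for Prpf8, -0.094 to 0.094 for Dhx38, -0.21 to 0.058 for Dhx8 and -0.045 to 0.11 for Slu7. The cause was not tested.

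The labels do not tie the replicate numbers to animals or days. Deviations of cKO and control libraries with the same number correlated at 0.104, -0.052, 0.10 and 0.062, and those with different numbers at -0.199 to 0.189. Such values neither show nor exclude a pairing. With the replicate block 10 core spliceosome genes (8 higher, 2 lower) and 5793 genes in all were called, and 1 gene, Sart1, for usage. The core spliceosome call lost with the block was that of Snrpc (0.85, adjusted p = 0.0554). About 20 oocytes per library, short countable stretches and few counts for 25 of the 59 genes limit what could be measured.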
